A study of Mus musculus with 6 samples.

Results

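The laminins, nidogens and their cell surface receptors were examined in cultures grown for 7 days from the dorsal root ganglia (DRG) of mice. DRG are the clusters of sensory neurons and glia beside the spinal cord. The 37 genes comprised 10 laminin chains, both nidogens, dystroglycan (Dag1), 16 integrin alpha subunits and 8 integrin beta subunits, and each was matched by its symbol to 1 row of a table of 45703 genes. Matching by symbol used no measured value, but the genes were chosen with earlier results of these data known. All 6 samples formed 1 group, called biological replicates in the series' design text, and the mice were C57BL/6 of wild-type genotype, 4 to 6 weeks old. Cells were plated on poly-L-lysine in medium holding 10% serum with EGF and FGF at 10 ng/ml, and each RNA sample pooled 2 dishes. The labels do not say whether each replicate came from separate animals, so the spread between these samples may be technical. P-values therefore refer to these samples and not to animals.

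A basement membrane is the thin sheet of matrix that surrounds Schwann cells, vessels and muscle fibres. Laminins are trimers of an alpha, a beta and a gamma chain that assemble on the cell surface, and nidogens link that laminin network to type IV collagen. Cells hold on to laminin through dystroglycan and through integrins, receptors built from an alpha and a beta subunit whose pairing sets the ligand. In peripheral nerve, laminin made by Schwann cells and its receptors are known for their role in the sorting and myelination of axons.

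The 6 libraries held 20070639 to 22968642 counts, scaled below by the library total to CPM, a gene's share of the counts. Levels of different genes are compared as CPM per kilobase (kb) of combined exon length. All 7 peripheral glia markers examined and all 7 neuron markers reached 1 CPM in every library. So did 6 of 6 fibroblast, 5 of 6 mural, 5 of 7 macrophage and 3 of 6 endothelial markers, and 0 of 5 lymphocyte markers. Over all genes of the table, 30.4% reached 1 CPM in every library. Replicates 1 and 5 stood at the ends of many genes. Replicate 5 held the highest of the 6 values for 29.2% of the 14998 genes kept by edgeR's low-count filter and the lowest for 26.2%, and replicate 1 held the highest for 18.2% and the lowest for 23.8%. For the widest ranges, ratios without one of these libraries are given beside the full ones.

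Of the 37 genes, 30 reached 1 CPM in all 6 libraries (CPM of at least 1), against 30.4% of all genes in the table. The same 30 genes passed the low-count filter. The remaining 7 were Lama3, Lamb3, Lamc3, Itgal, Itgax, Itgb6 and Itgb7. Together the 37 genes took 15581 ± 1451 CPM (SD, n = 6), with replicate 5 lowest at 13560 CPM and replicate 2 highest at 17608 CPM. Their median level was 17.3 CPM per kb. The order of levels ran from Itgb1 at 545 CPM per kb through Nid1 at 406, Dag1 at 376, Itgb8 at 199.7 and Itga7 at 174 CPM per kb down to Itgb6 at 0.0117 CPM per kb.

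**Figure D1:**
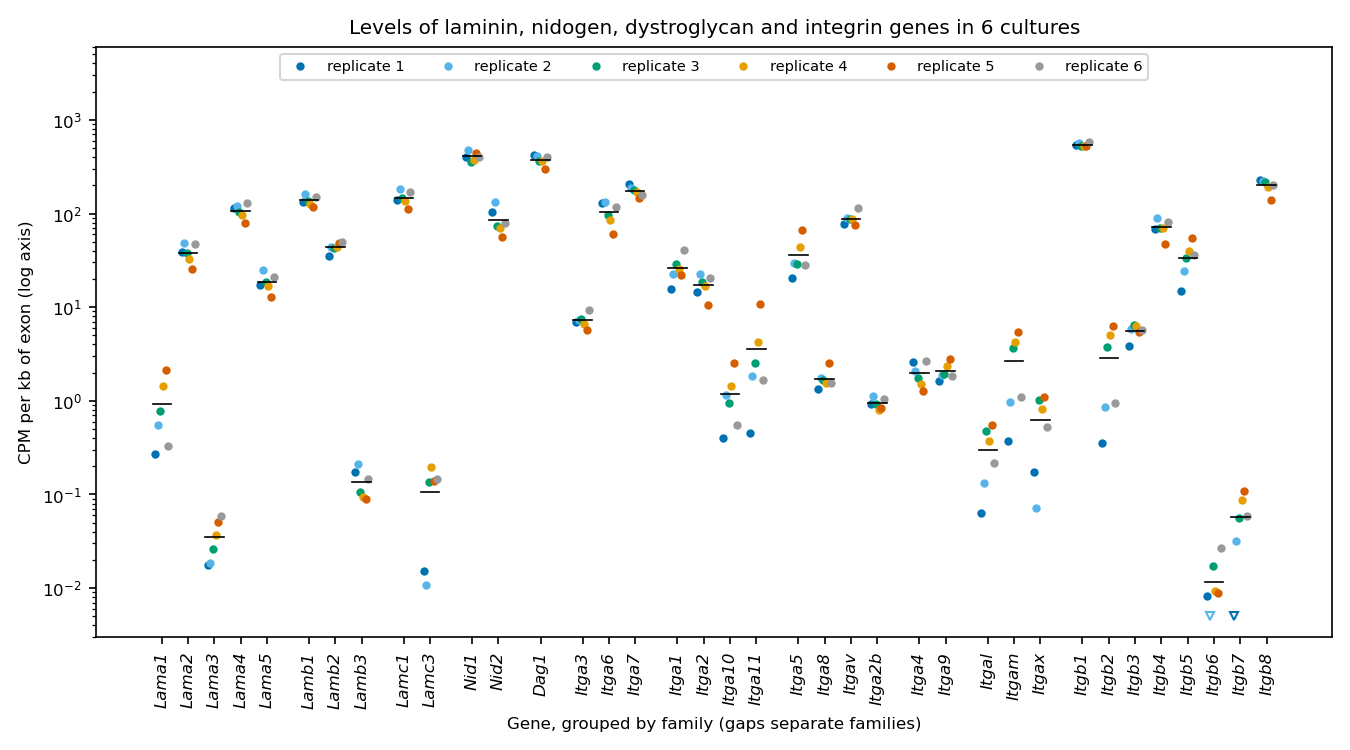
Levels of the 37 genes in CPM per kb of exon, on a log axis, grouped by family; each point is 1 culture, each bar the mean of 6 cultures, and open triangles mark a count of 0. Itgb1, Nid1 and Dag1 had the 3 highest means, and the points of Itgb1 lie closest together.

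Among the laminin alpha chains, Lama4, Lama2 and Lama5 carried nearly all of the level. Lama4 (chromosome 10, 38965515 to 39110188, GRCm38.p6), a chain of Schwann cell and vessel basement membranes, had 694, 721, 625, 584, 480 and 788 CPM in replicates 1 to 6. Its lowest value was in replicate 5 and its highest in replicate 6. Lama4 made up 65.2% ± 1.82 of the family's summed CPM per kb (SD, n = 6).

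Lama2 (chromosome 10, 26981285 to 27617191), the alpha chain lost in merosin-deficient muscular dystrophy and a main chain of the endoneurial basement membrane, had 467, 581, 453, 396, 309 and 566 CPM, a share of 22.98% ± 1.26. Lama5, a chain of vessel and many epithelial basement membranes, had 200.1, 287, 219, 195, 149 and 242 CPM, a share of 11.2% ± 1.00. All 3 chains had their lowest value in replicate 5, while their shares of the family moved by a few percentage points.

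Within each library the log2 difference of CPM per kb was -1.50 ± 0.113 for Lama2 minus Lama4 and 1.04 ± 0.0977 for Lama2 minus Lama5 (mean ± SD, n = 6). Both orders held in 6 of 6 libraries (exact permutation of signs, two-sided, over the signs of the 6 within-library differences; p = 0.0312, the smallest possible with 6 libraries, and 0.0346 after Benjamini-Hochberg adjustment over 62 pairs within families).

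Lama1 (chromosome 17, 67697127 to 67822645), the alpha chain of the earliest embryonic basement membranes, was far lower and far more variable. It had 2.74, 5.60, 7.75, 14.4, 21.5 and 3.30 CPM in replicates 1 to 6, so that replicate 5 was 7.85 times replicate 1. The highest library was 5.25 times the lowest without replicate 5 and 6.53 times without replicate 1. Lama3, the alpha chain of epithelial anchoring laminin, had 0.426 ± 0.208 CPM (SD, n = 6) and between 5 and 15 counts per library.

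Of the beta chains, Lamb1 (chromosome 12, 31265146 to 31329644), the widely expressed chain, had 778, 945, 805, 748, 686 and 879 CPM in replicates 1 to 6. Lamb2, the chain known from synaptic, perineurial and kidney basement membranes, had 197, 248, 241, 248, 270.5 and 279 CPM. Their extremes differed, since Lamb1 was lowest in replicate 5 and Lamb2 lowest in replicate 1. Lamb1 exceeded Lamb2 in 6 of 6 libraries by 1.65 ± 0.234 (log2 CPM per kb, SD, n = 6; exact permutation of signs p = 0.0312, adjusted 0.0346).

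Lamb3, which joins Lama3 in epithelial laminin, had 8 to 20 counts per library, or 0.586 ± 0.211 CPM. Defining markers of surface epithelium were likewise near 0: Krt5 had no count in any library, and Krt14 and Epcam had at most 3 counts in each. Cdh1 of the same list was counted at 20.8 ± 6.61 CPM (SD, n = 6).

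Lamc1 (chromosome 1, 153218922 to 153332786), the gamma chain of most laminins, had 1053, 1379, 1120, 1044, 843 and 1298 CPM. It made up 99.9% of the gamma chains in CPM per kb. Lamc3 had 3 and 2 counts in replicates 1 and 2 and from 25 to 33.25 counts in the other 4 libraries. At these counts the level of Lamc3 is poorly resolved.

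Summed by position in the trimer, the chains came to similar totals. The alpha chains summed to 165 ± 29.2 CPM per kb, the beta chains to 182 ± 17.1 and the gamma chains to 147 ± 25.3 (SD, n = 6). In replicate 5 the sums were 120, 165 and 111 CPM per kb, and in replicate 6 they were 198, 199.8 and 170. The alpha and gamma sums were lowest in replicate 5, as was the beta sum. These are RNA levels over exon lengths as annotated, so equal sums do not show equal amounts of protein.

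The 2 nidogens differed in level and in their pattern over the cultures. Nid1 (chromosome 13, 13437602 to 13512275) had 2418, 2872, 2137, 2265, 2649 and 2403 CPM, and its highest library was 1.34 times its lowest. Nid2 (chromosome 14, 19751257 to 19811787) had 505, 641, 358, 346, 276 and 383 CPM, a ratio of 2.32, or 1.85 without replicate 5, which held its lowest value. Nid1 exceeded Nid2 by 2.29 ± 0.389 in 6 of 6 libraries (log2 CPM per kb, SD, n = 6; exact permutation of signs p = 0.0312, adjusted 0.0346). Nid2 overlaps Rtraf, a gene on the opposite strand counted at 138 CPM, and the strand setting of the counting is not given in the sources used here.

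Dystroglycan, the laminin receptor that connects the matrix to dystrophin or utrophin inside the cell, was one of the highest genes. Dag1 (chromosome 9, 108204861 to 108263977) had 2519, 2480, 2150, 2164, 1766 and 2421 CPM. The highest library was 1.43 times the lowest, which was replicate 5, and the other 5 libraries lay within 1.17-fold. Of 15 genes listed as dystroglycan partners, 14 passed the low-count filter, against 14998 of the 45703 genes in the table. Of those 14, 9 had their lowest value in replicate 5, against 26.2% of all genes kept. The highest of the 14 per length were Sgcb and Sgce, sarcoglycans, at 74.5 and 41.8 CPM per kb. The lowest of the 14 was Drp2, a dystrophin-related protein of Schwann cells, at 0.584 CPM per kb.

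Among laminin-binding integrin alpha subunits, Itga7 and Itga6 were abundant and Itga3 was not. Itga7 (chromosome 10, 128933421 to 128958286), which pairs with beta1, had 1672, 1517, 1442, 1361, 1175 and 1283 CPM. Itga6 (chromosome 2, 71786886 to 71858427), which pairs with beta1 or beta4, had 807, 831, 589, 532, 372 and 718 CPM. Both were lowest in replicate 5, by a wider margin for Itga6, whose highest library was 2.24 times its lowest against 1.42 for Itga7. Without replicate 5 these ratios were 1.56 and 1.30.

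Itga7 stood above Itga6 in every library, with a difference of Itga6 minus Itga7 of -0.79 ± 0.317 (log2 CPM per kb, SD, n = 6; exact permutation of signs p = 0.0312, adjusted 0.0346). Its share of the 3 laminin-binding subunits was 61.6% ± 4.91, and that of Itga6 was 35.8% ± 4.91. Itga3, a laminin receptor of epithelia and kidney, had 30.7 to 49.3 CPM and a share of 2.57% ± 0.428.

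**Figure D2:**
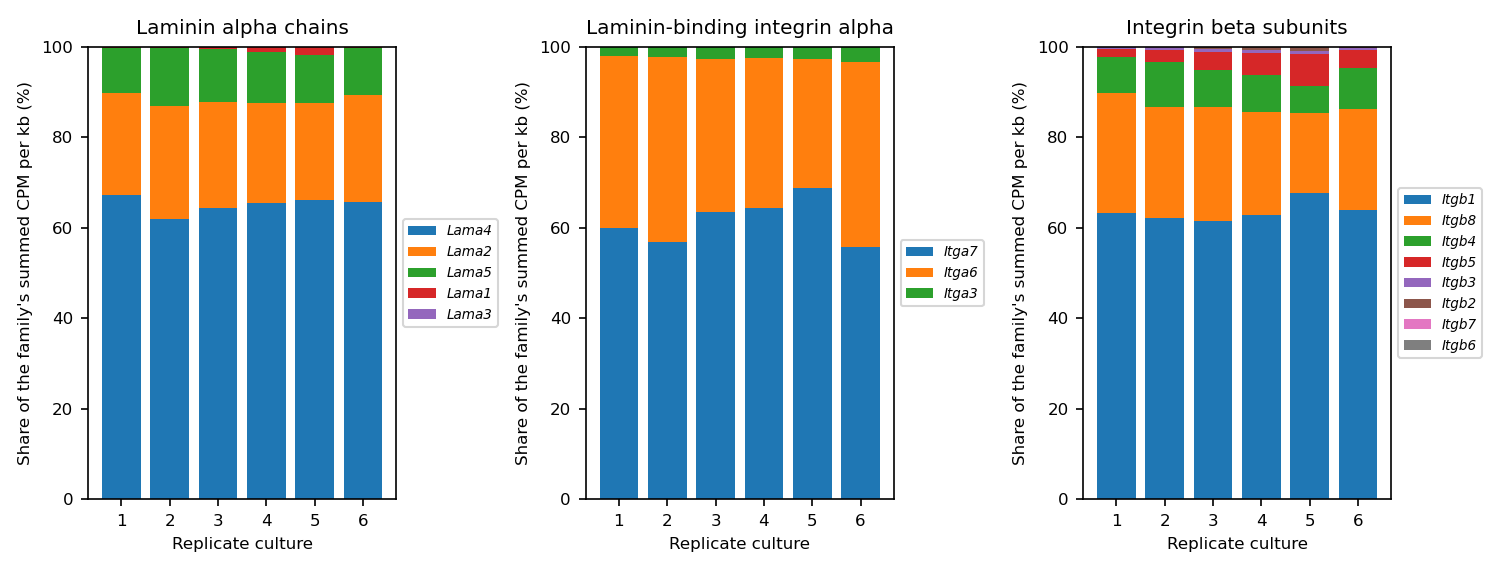
Share of each gene in the summed CPM per kb of its family, in percent, for the laminin alpha chains, the laminin-binding integrin alpha subunits and the integrin beta subunits; each bar is 1 culture. Lama4, Itga7 and Itgb1 held the largest share in each of the 6 cultures.

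Collagen-binding alpha subunits split into a pair of moderate genes and a pair of low, variable ones. Itga1 had 94.1, 137, 174, 151, 131 and 246 CPM and Itga2 had 103, 159, 131, 121, 75.5 and 146 CPM in replicates 1 to 6. The gap of 0.57 ± 0.427 between them (log2 CPM per kb, SD, n = 6) held in 6 of 6 libraries (exact permutation of signs p = 0.0312, adjusted 0.0346). With no division by length it was 0.32 and did not pass (adjusted p = 0.161, exact permutation of signs). Pelo, a gene within the Itga1 locus on the same strand, was counted at 16.1 CPM.

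Itga11 (chromosome 9, 62677855 to 62783979), a receptor for fibrillar collagen on mesenchymal cells, had the highest ratio of highest to lowest library among genes with a mean of at least 5 CPM when all 6 libraries were used. Its values were 2.26, 9.20, 12.6, 21.1, 52.7 and 8.18 CPM, so replicate 5 was 23.3 times replicate 1. The highest library was 9.31 times the lowest without replicate 5, when Itgb2 (14.0) and Itgam (11.4) were above it. Without replicate 1 it was 6.45 times, when Itgb2 (7.32) and Lama1 (6.53) were above it. Itga10, its relative known from cartilage, had 2.00, 5.87, 4.80, 7.27, 12.9 and 2.77 CPM, a ratio of 6.44, or 3.63 without replicate 5 and 4.65 without replicate 1. In replicate 5 Itga11 reached the level of Itga2, and their order did not pass the test (5 of 6 libraries; exact permutation of signs p = 0.0625, adjusted 0.0635).

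The alpha subunits whose integrins bind the RGD sequence of fibronectin, vitronectin and related proteins were led by Itgav (chromosome 2, 83722303 to 83806917). Itgav had 700.0, 812, 793, 806, 688 and 1041 CPM, with replicate 6 apart from the other 5 libraries. Itga5 (chromosome 15, 103344286 to 103366791), the alpha subunit of the classical fibronectin receptor, had 92.5, 131, 129, 197, 295 and 126 CPM. Its pattern was unlike that of Itgav: replicate 5 was 3.19 times replicate 1. Without replicate 5 the ratio of its highest to its lowest library was 2.13, and without replicate 1 it was 2.35. Itgav exceeded Itga5 in 6 of 6 libraries, with a difference of Itga5 minus Itgav of -1.37 ± 0.679 (log2 CPM per kb, SD, n = 6; exact permutation of signs p = 0.0312, adjusted 0.0346), but in replicate 5 the levels were 75.2 and 66.1 CPM per kb.

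Itga8, a receptor for nephronectin, had 8.79 to 16.6 CPM with its highest value in replicate 5. Itga2b, the platelet subunit, had 2.74 to 3.83 CPM and was the one gene of the 30 whose spread did not exceed counting noise (chi-square test, Benjamini-Hochberg adjusted p = 0.271). Of 4 platelet and megakaryocyte markers, Gp9 had no count in any library, Ppbp and Pf4 averaged 0.0658 and 0.534 CPM, and Gp1bb averaged 14.1 CPM.

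Itga4 and Itga9, receptors for VCAM1, fibronectin variants and tenascin-C, were low and close to each other. Itga4 had 12.4 to 26.4 CPM and was lowest in replicate 5, and Itga9 had 11.8 to 20.4 CPM and was highest in replicate 5. Itga4 was the higher of the pair in 3 libraries and Itga9 in 3 (mean log2 difference -0.08 ± 0.677, SD, n = 6; exact permutation of signs p = 0.812, adjusted 0.812). Itga9 overlaps Gm10157, a pseudogene on the opposite strand counted at 16.7 CPM.

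Itgb1 (chromosome 8, 128685654 to 128733579), the beta subunit shared by most laminin, collagen and fibronectin receptors, was both the highest of the 37 genes per length and the steadiest. It had 2286, 2369, 2218, 2204, 2219 and 2424 CPM in replicates 1 to 6, and its highest library was 1.10 times its lowest. The coefficient of variation (CV, the SD as a percentage of the mean) was 4.00%, against a median of 12.1% over the 14998 genes kept by the filter. It held 63.6% ± 2.21 of the beta subunits in CPM per kb.

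Itgb8 (chromosome 12, 119162803 to 119238276), which pairs with alphaV in a receptor that releases active TGF-beta, came next among the beta subunits. It had 706, 688, 673, 591, 428 and 623 CPM and a share of 23.2% ± 3.11. Itgb4 (chromosome 11, 115974725 to 116008412), the partner of alpha6 in hemidesmosomes and in Schwann cells, had 434, 572, 447, 443, 299 and 517 CPM. Itgb5, a vitronectin receptor subunit, had 51.6, 84.0, 116, 139.7, 191 and 125 CPM and ran the other way, lowest in replicate 1 and highest in replicate 5. Its highest library was 3.69 times its lowest, 2.71 times without replicate 5 and 2.27 times without replicate 1.

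Itgb8 stood above Itgb4 in 6 of 6 libraries, with a difference of Itgb4 minus Itgb8 of -1.50 ± 0.175 (log2 CPM per kb, SD, n = 6; exact permutation of signs p = 0.0312, adjusted 0.0346). Itgb4 exceeded Itgb5 in 5 of 6 libraries and was below it in replicate 5, where the log2 difference was -0.22 (mean difference 1.150 ± 0.854; exact permutation of signs p = 0.0625, adjusted 0.0635). Itgb3, the vitronectin receptor subunit of platelets and osteoclasts, had 23.1 to 38.1 CPM. Itgb6, an epithelial subunit, had 0 counts in replicate 2 and at most 3 elsewhere, and 3 counts correspond to 0.131 to 0.149 CPM in these libraries. Itgb7, a lymphocyte subunit, had 0 counts in replicate 1 and at most 13.

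Over all families, 56 of the 62 pairs were ordered the same way in 6 of 6 libraries. These 56 had an adjusted p of 0.0346 (exact permutation of signs), which comes from the smallest p possible with 6 libraries. Several of the pairs held a gene that failed the low-count filter, such as Itgb1 with Itgb6 (mean log2 difference 12.3). The share of other gene pairs ordered alike was not computed, so the count is a description of these families. The 6 exceptions were Itga2 with Itga11, Itga4 with Itga9, Itgal with Itgax, Itgb2 with Itgb3, Itgb4 with Itgb5, and Itgb6 with Itgb7. Replicate 5 was the library that broke the order for Itga2 with Itga11, Itgb2 with Itgb3 and Itgb4 with Itgb5.

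The leukocyte integrins were low, and Itgam and Itgb2 had the same high and low libraries. Itgam (chromosome 7, 128062640 to 128118491), the alpha subunit of the myeloid receptor Mac-1, had 1.74, 4.55, 17.2, 19.8, 25.6 and 5.12 CPM in replicates 1 to 6. Its partner Itgb2 (chromosome 10, 77530329 to 77565708) had 1.07, 2.55, 11.1, 15.0, 18.7 and 2.82 CPM. Replicates 3, 4 and 5 were high and replicates 1, 2 and 6 low for both genes, a grouping read from these values and not from the labels. Itgal, the lymphocyte and myeloid alpha subunit, had 0.348 to 3.01 CPM, and Itgax, of dendritic cells and macrophages, had 0.319 to 4.94 CPM.

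The highest library was 14.7 times the lowest for Itgam and 17.5 times for Itgb2. Without replicate 1 these ratios were 5.62 and 7.32, and without replicate 5 they were 11.4 and 14.0. Macrophage markers moved with them: the summed level of 7 markers was 15.0, 26.9, 112, 129.6, 156 and 40.3 CPM in replicates 1 to 6. Of the 6 markers kept by the filter, 6 were lowest in replicate 1, against 23.8% of all genes kept. No macrophage marker was at 0 in every library, and Aif1 was lowest at 0.364 CPM on average. Whether the leukocyte integrin values follow the number of macrophages was not tested. In such bulk libraries, fewer cells of a type and less RNA per cell cannot be told apart.

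The promoters of 3 genes are shown as examples of the sequence just upstream of these genes: Itgb1, with the smallest spread between cultures, and Itga11 and Itgam, among the genes with the largest. Each line gives the 250 bases before a RefSeq start on GRCm38.p6, in the direction of the gene. Capitals mark matches, on either strand, to GGGCGG, the GC box bound by Sp1 family factors, and to GAGGAA, the core of sites of the myeloid factor PU.1, which contains the GGAA common to ETS factors.
Itgb1, chr8:128685404-128685653, + strand: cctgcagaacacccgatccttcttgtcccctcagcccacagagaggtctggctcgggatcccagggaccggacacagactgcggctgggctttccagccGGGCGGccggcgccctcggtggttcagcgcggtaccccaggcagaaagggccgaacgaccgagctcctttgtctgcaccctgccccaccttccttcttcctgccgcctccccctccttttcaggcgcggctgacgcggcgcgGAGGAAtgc
Itga11, chr9:62677605-62677854, + strand: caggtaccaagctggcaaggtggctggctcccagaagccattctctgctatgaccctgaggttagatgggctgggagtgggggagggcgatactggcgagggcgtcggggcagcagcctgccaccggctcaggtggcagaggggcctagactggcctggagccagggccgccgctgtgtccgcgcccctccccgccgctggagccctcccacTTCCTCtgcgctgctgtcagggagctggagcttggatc
Itgam, chr7:128062390-128062639, + strand: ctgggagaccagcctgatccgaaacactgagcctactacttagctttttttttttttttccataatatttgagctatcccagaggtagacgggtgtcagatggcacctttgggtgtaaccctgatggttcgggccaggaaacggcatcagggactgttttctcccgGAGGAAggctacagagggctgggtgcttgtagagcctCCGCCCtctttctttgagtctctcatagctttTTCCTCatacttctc

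The Itgb1 window held 21 CpG dinucleotides at 68.0% GC, the Itga11 window 12 at 68.4% GC and the Itgam window 6 at 49.6% GC, against medians of 6 CpG and 52.4% GC over 32851 windows of the same length. GAGGAA occurred in each of the 3, in 14 of the 29 windows found for 25 of the 37 genes and in 23.3% of all windows. GGGCGG occurred in 12 of the 29 and in 32.7% of all windows. A match is a description of the letters and not a binding site.

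Spread between the cultures exceeded counting noise for 29 of the 30 genes kept by the filter (chi-square test, Benjamini-Hochberg adjusted p under 0.05), against 76.3% of all 14998 genes tested. Deep counts make small differences pass this test, so the count says little about the size of the spread. The CV of the 30 genes ranged from 4.00% for Itgb1 to 103% for Itga11, with a median of 21.4% against 12.1% over all genes kept. Without replicate 5 these medians were 15.6% and 10.3%, the CV of Itga11 was 64.8%, and Itgb2 had the highest at 94.7%.

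With edgeR's quasi-likelihood fit, 0 of the 30 varied beyond genes of like abundance at an adjusted p under 0.05, as did 0% of all genes. At an unadjusted p under 0.05 the numbers were 8 of 30 and 5.39% of all genes. Those 8 were Itga10, Itgam, Itga11, Itgb2, Itga1, Itga5, Itgb5 and Lama1. A count of 0 past the adjusted threshold does not show that the genes varied alike.

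The 30 genes fell into contrasting patterns over the cultures. Lama1, Itga10, Itga11, Itga5, Itga8, Itga9, Itgam, Itgb2 and Itgb5, 9 genes, were each highest in replicate 5 and lowest in replicate 1, a combination found in 12.9% of all genes kept. Being highest in replicate 5, on its own, was shared by 9 of the 30 and by 29.2% of all genes. Conversely, 15 of the 30 were lowest in replicate 5, against 26.2% of all genes. Replicate 1 held the highest value of 3 of the 30 and the lowest of 12, against 18.2% and 23.8% of all genes. The 15 genes lowest in replicate 5 were Lama2, Lama4, Lama5, Lamb1, Lamc1, Nid2, Dag1, Itga3, Itga6, Itga7, Itga2, Itgav, Itga4, Itgb4 and Itgb8.

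Marker lists of several cell types moved along the same libraries. The 7 peripheral glia markers summed to 6488, 6497, 6214, 5717, 4414 and 6173 CPM in replicates 1 to 6, and 7 of 7 were lowest in replicate 5. Neuron markers were lowest in replicate 5 for 6 of 7, with sums from 961 to 2094 CPM. Over all genes kept by the filter, 26.2% were lowest in replicate 5. Fibroblast markers summed to 3338, 6062, 4429, 7446, 13967 and 4799 CPM. Of these, 6 of 6 were lowest in replicate 1 and 5 of 6 highest in replicate 5, against 23.8% and 29.2% of all genes kept.

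Mural markers summed to 179 CPM in replicate 1 and 1394 CPM in replicate 5, and endothelial markers to 10.4 and 134 CPM. The highest perineurial sum, in replicate 5, was 331 CPM and the lowest 301 CPM, although Lypd2 of that list had no count in any library. The part of cell composition in the levels of the laminin and integrin genes was not tested. The labels name no batch, so no value could be recomputed within batches.

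**Figure D3:**
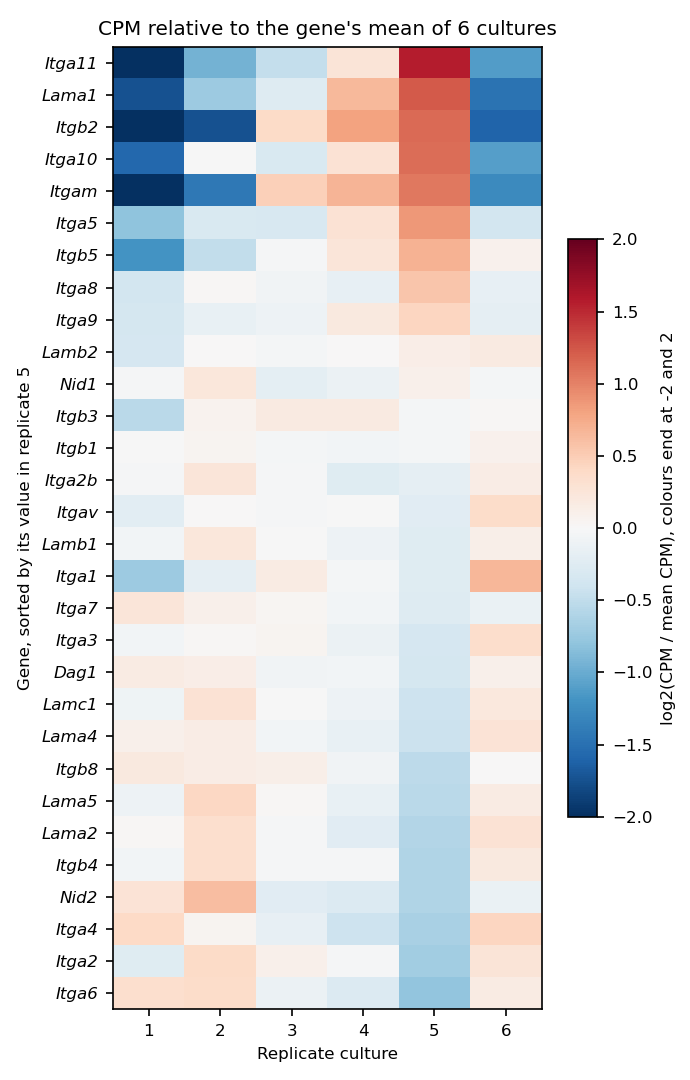
CPM of the 30 genes kept by the low-count filter, relative to the gene's mean over 6 cultures, as log2; rows are genes sorted by replicate 5 and columns are cultures. The 9 upper rows were highest in replicate 5, and 15 of the lower rows were lowest there.

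**Figure D4:**
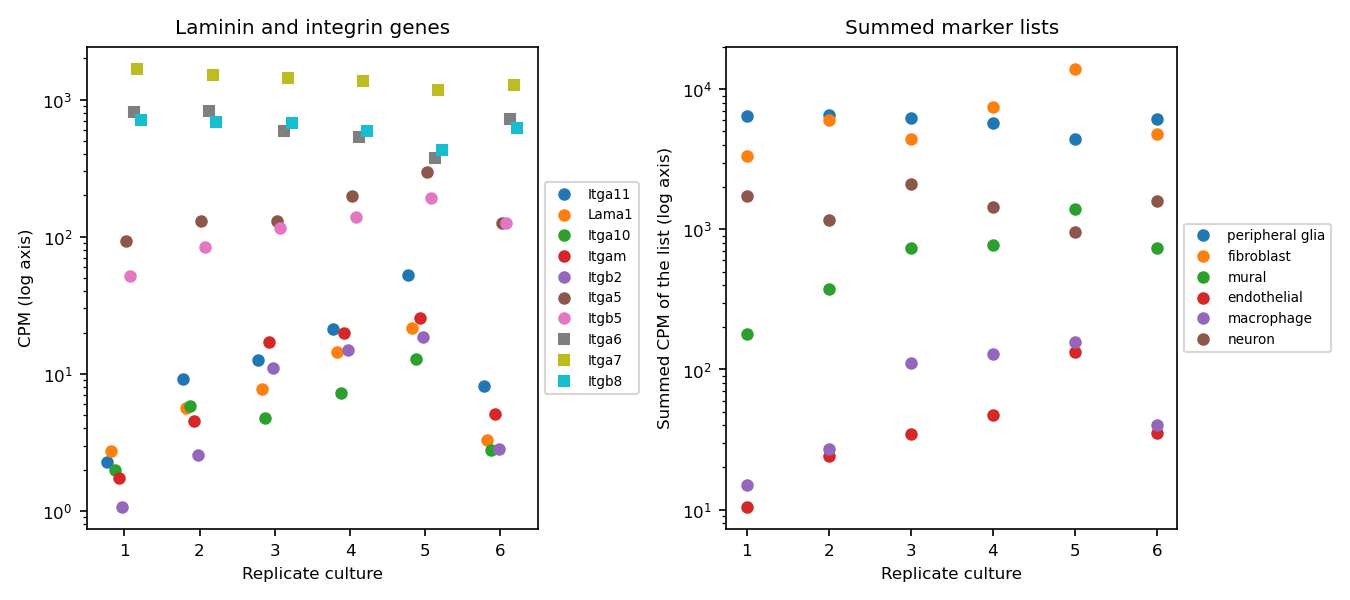
Left, CPM of 7 genes that were highest in replicate 5 (circles) and 3 that were lowest there (squares); right, summed CPM of 6 marker lists; both on log axes, 1 point per culture, points offset sideways for legibility at left. Fibroblast, mural, endothelial and macrophage sums were highest in replicate 5, and glia and neuron sums lowest.

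For known partners, 6 relations across the 6 libraries were set, and p-values were adjusted over all 6 by Benjamini-Hochberg. Itgam and Itgb2 fell into the same separate clusters of 3 libraries, so no pooled correlation is given for them. Itga6 and Itgb4, which form the laminin receptor alpha6beta4, gave an r (Pearson) of 0.87 with an exact permutation p of 0.0278 and an adjusted p of 0.0556. Their rho (Spearman) was 0.66, with an exact permutation p of 0.175 and an adjusted p of 0.35. Leaving out replicates 2 and 5, which lay farthest from the median of Itga6, brought r to 0.21. The value of r thus depended on these 2 libraries. They were the highest and the lowest of Itga6, and a narrower range can by itself lower r.

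Lama4 and Lamb1, chains of the same trimer, also gave an r of 0.87, with an exact permutation p of 0.0278 and an adjusted p of 0.0556. Their rho was 0.89, with an exact permutation p of 0.0333 and an adjusted p of 0.10, and r was 0.74 when replicates 5 and 6 were left out. Neither relation passed the correction. With TMM scaling of the libraries both did, at an adjusted p of 0.0472 for r (exact permutation). That adjustment counted the relation of Itgam with Itgb2, for which no correlation is given. With library totals and that relation left out, the smallest adjusted p was 0.0694 (exact permutation). TMM scaling with it left out is not given.

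Itgav with Itgb5 gave r = 0.15 and rho = -0.14, and Itgav with Itgb8 gave r = 0.29 and rho = 0.14. Lamc1 with Nid1, whose protein binds the gamma1 chain, gave r = 0.15 and rho = 0.14. Exact permutation p-values of these 3 relations lay between 0.458 and 0.803, with adjusted values from 0.6875 to 0.803. When the 2 libraries farthest from the median of the first gene were left out, r was 0.84, -0.54 and 0.25 in the same order, and the sign changed for Itgav with Itgb8.

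**Figure D5:**
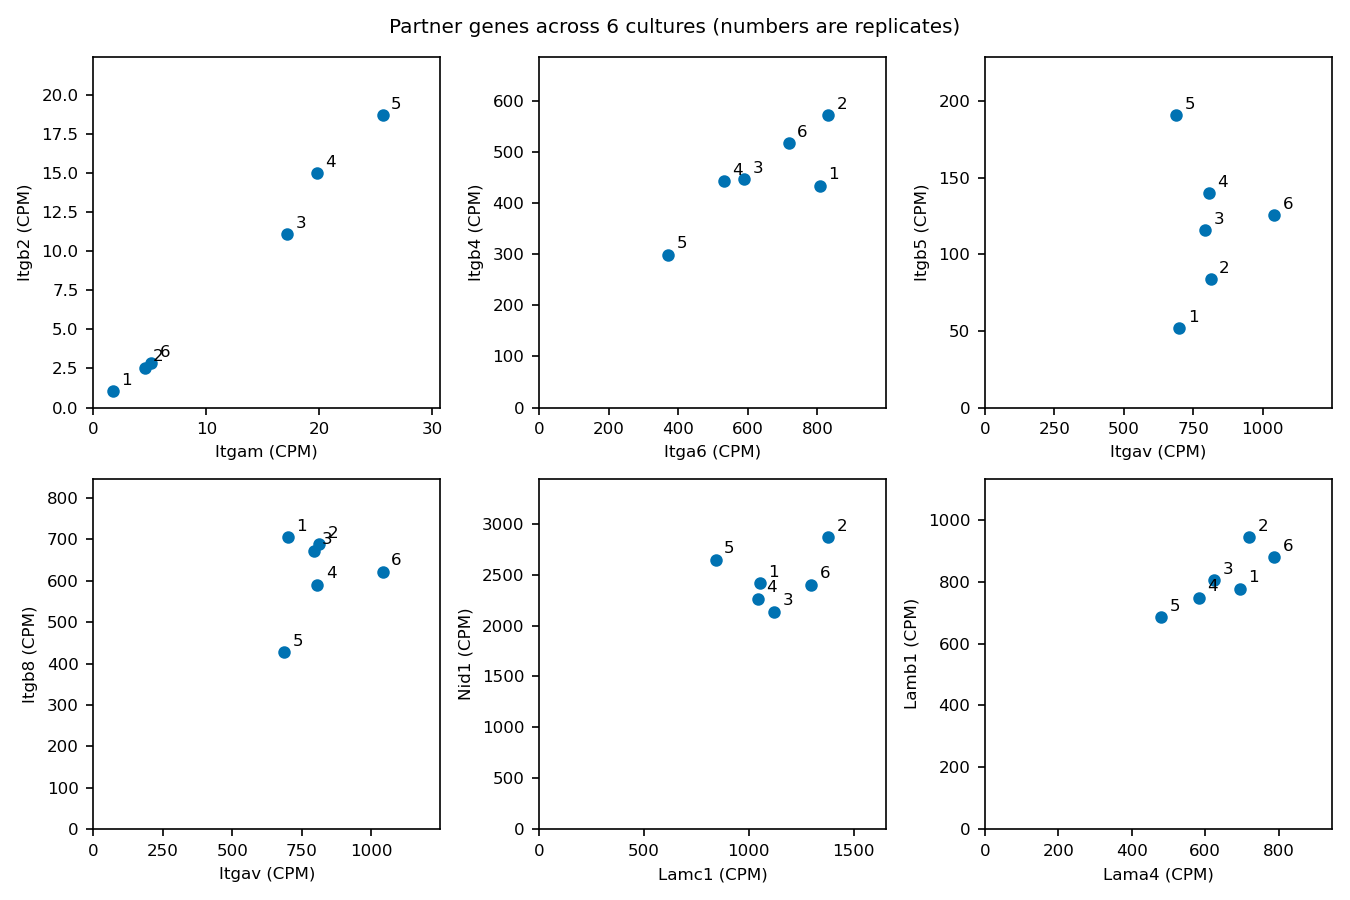
CPM of 6 pairs of partner genes, 1 point per culture, numbered by replicate; both axes start at 0. Itgam and Itgb2 separate replicates 3, 4 and 5 from 1, 2 and 6, and replicate 5 is lowest on both axes for Itga6 with Itgb4 and for Lama4 with Lamb1.

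The genes that link integrins to the cytoskeleton were mostly present. Of 15 adaptor genes, 13 passed the low-count filter, against 14998 of the 45703 genes in the table. All 13 varied beyond counting noise (chi-square test, adjusted p under 0.05, against 76.3% of all genes). Ilk, the integrin-linked kinase, at 172 CPM per kb and Vcl, vinculin, at 118 CPM per kb were the highest. Fermt1, the epithelial kindlin, had at most 3 counts in every library. Fermt3, the kindlin of blood cells, did not pass the filter and had 1.90 ± 1.50 CPM. It was lowest in replicate 1 and highest in replicate 3. Of the 13 adaptors kept, 6 were also lowest in replicate 1, against 23.8% of all genes kept. Fermt2, the widely expressed kindlin, had 378 ± 30.6 CPM (SD, n = 6).

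Of the other basement membrane genes, 5 of 5 passed the filter, against 14998 of the 45703 genes in the table. Sparc, a collagen-binding glycoprotein, at 3311 CPM per kb and Col4a1 at 375 CPM per kb were the highest, and Hspg2 (perlecan) at 193 and Agrn (agrin) at 98.1 CPM per kb the lowest. Col4a1 and Col4a2, the chains that nidogens tie to laminin, were lowest in replicate 1 and highest in replicate 5. Hspg2 and Agrn, which bind dystroglycan, were lowest in replicate 5, as Dag1 was. Sparc of the same list was also lowest there, as were 26.2% of all genes kept by the filter.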

How the data were processed

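RNA was sequenced from 6 cultures of dorsal root ganglia with stranded poly-A libraries, per the labels' protocols. The authors deposited 1 table of estimated counts per gene and library, unscaled, with a combined exon length; 13.4% to 14.7% of its values per library were fractions, as were values of 18 of the 37 genes in at least 1 library. The submitters' processing notes name bcl2fastq 2.20.0.422, cutadapt 2.5, STAR 2.7.2b, featureCounts 1.6.4 and GRCm38.p6; strand setting and treatment of reads with several matches are not given in the sources used here. All 37 genes matched RefSeq by identifier, symbol and start. Totals were 20070639 to 22968642 counts.

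CPM used library totals. For edgeR 4.0.16 (R 4.3.3) counts were rounded, filtered with filterByExpr (14998 genes) and scaled by TMM, the trimmed mean of M-values, the factors being 0.976 to 1.02. A chi-square test set each gene's 6 counts against scaled library sizes. The quasi-likelihood fit held an intercept only, and the ratio of its residual quasi-dispersion to the trended prior was tested one-sided by F. P-values of either test were adjusted over all genes. Both tests were run on simulated data with known changes; the chi-square test recovered them and the trend test did not, so its count is no measure of stability. Pairs used log2(CPM per kb + 0.1) and an exact sign-flip over 64 patterns; relations used log2(CPM + 0.5) and 720 pairings, adjusted over 6 relations. Named in full were genes with a mean of at least 100 CPM, the 6 with the highest ratio of highest to lowest library at a mean of at least 5 CPM, and partners; the rest are given by range. Pathway lists are named by their 2 highest and 2 lowest genes, except 1 gene that is not reported here, and further genes of lists were named after their values were seen. The genes and lists were chosen with earlier results of these data known. Promoter windows are from RefSeq. Alternatives were TMM and DESeq2 1.42.0 scaling, other thresholds, filters and pseudocounts, no length scaling, and leaving out each replicate. The deposited table held 0 further columns of per-sample values.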

Additional observations from a re-analysis of the deposited data

Results flagged for a closer look

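Libraries far from the rest were sought in 30 genes by Dixon's ratio, the distance of an end value from the next one as a part of the range of the 6 CPM values, at the 95% level. Chance flags about 1 in 20 genes, or 1.5 of 30, and 4 exceeded it. Itga11 had a ratio of 0.627 for its highest library, replicate 5, at 52.7 CPM against 21.1 CPM in the next. Itga8 had 0.658 for replicate 5, at 16.6 CPM against 11.5 CPM. Itgav had 0.648 for replicate 6, at 1041 CPM against 812 CPM. Itgb3 had 0.634 for its lowest library, replicate 1, at 23.1 CPM against 32.6 CPM. No cause was tested.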

How the results depend on the processing

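The number of genes reaching the detection threshold in every library was 30 with TMM scaling, with a threshold of 0.5 CPM and without any single replicate, 24 at 5 CPM, and 33 when 3 libraries sufficed. The number varying beyond counting noise was 29 with DESeq2 size factors and with library totals, 33 without the low-count filter, and 28 to 30 without single replicates. Beyond the abundance trend, 0 genes were called with DESeq2 size factors, library totals, no filter or any single replicate left out. Of the 62 pairs, 56 were ordered the same way in every library with a pseudocount of 1 and with TMM scaling, 58 with no length scaling, and 56 to 59 without single replicates, where 5 libraries allow no p below 0.0625. With no length scaling the gap of Itga1 over Itga2 no longer passed, those of Itga2 with Itga11, Itgb2 with Itgb3 and Itgb4 with Itgb5 passed (adjusted p = 0.0334, exact permutation of signs), and the mean difference of Itga4 from Itga9 turned from -0.08 to 0.34 (adjusted p = 0.281, exact permutation of signs); it was also above 0 without replicate 4 (0.027) and without replicate 5 (0.12). With TMM scaling the relations of Itga6 with Itgb4 (r = 0.88) and of Lama4 with Lamb1 (r = 0.88) passed at an adjusted p of 0.0472 (exact permutation). The clustered relation of Itgam with Itgb2 was counted in that adjustment, and the cause was not tested. None passed with a pseudocount of 5. With library totals, none passed when the clustered relation was left out of the adjustment (smallest adjusted p = 0.0694, exact permutation). Numbers highest or lowest in replicates 1 and 5 were the same with TMM and DESeq2 scaling, alternatives chosen after seeing the data, as were the ratios without replicate 5 or 1 and the omission of the clustered relation. Genes with few counts, such as Lamc3, Itgb6 and Itgb7, are limited by depth.

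No paired analysis was possible because all samples belong to 1 group.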
